A study of Mus musculus with 20 samples.

Results

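Adult mouse retina and newborn mouse cortex were compared on 10 of the 20 arrays of a platform study, those hybridised at the study's second site (site 2). The retina RNA came from 1 pool of adult C57/B6 mice and the cortex RNA from 1 pool of Swiss-Webster mice at postnatal day 1, and neither pool carried a stated treatment or engineered allele. Each pool was hybridised to 5 CodeLink arrays (GE Healthcare, formerly Amersham), on which each array takes biotin-labelled RNA of a single sample. The arrays were chosen by their titles alone, and all 10500 probes were used. The 5 arrays of a tissue are technical replicates of pooled RNA, so their spread holds no difference between animals. Tissue, strain and age differed together between the pools and cannot be told apart. In bulk RNA of this kind, fewer cells of a type and less RNA per cell cannot be told apart either. The design text states that the second site served to assess variation across sites.

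The adult retina is a sheet of post-mitotic neurons dominated by rods. Rods and cones detect light in a stack of membrane discs, the outer segment, where an activated opsin drives transducin, phosphodiesterase and a cyclic nucleotide channel in turn. Bipolar, horizontal, amacrine and ganglion cells process the signal, and Müller glia span the whole layer. The cortex of a newborn mouse is still under construction: the last neurons and many glia are being born from dividing progenitors, young neurons extend axons, and vessels and meninges grow with the tissue.

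Among the markers set for the labelled tissues, Sag, Gnat1 and Pde6b for retina and Neurod6, Tbr1 and Emx1 for cortex were on the array. Gnat1, the rod transducin alpha subunit, read 163, 166, 160.0, 159 and 167 in retina and 0.163, 0.155, 0.116, 0.203 and 0.0954 in cortex. Neurod6, a bHLH factor that marks excitatory neurons of the cortex, read 0.3103, 0.5698, 0.272, 0.348 and 0.296 in retina and 25.9, 26.8, 28.2, 23.8 and 29.2 in cortex. Intensities are on the deposited linear scale, which has no unit, and 1 lies close to the median probe of an array, since array medians ran from 0.927 to 0.963. Array maxima ran from 166 to 272. Between 152 and 217 probes were blank on each array, and 92 probes were blank on all 10, of which 90 were blank on none of the first-site arrays. No detection flag was used, so a low reading cannot be separated from background.

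Cortex replicate 5 stood apart from the other 4 cortex arrays. On a log2 scale it lay a median of 0.34 below their mean (-0.339), and 71.4% of its probes read below the lowest of the other 4 arrays, while 12.5% read above the highest. Its departures upwards were the larger ones: 318 probes read over 8-fold above the mean of the other 4 arrays and 6 read over 8-fold below it. The correlation of its log2 intensities with the other cortex arrays was 0.918 to 0.923, against 0.984 to 0.992 among those 4 and 0.970 to 0.988 among the retina arrays. These correlations run across probes, which are not independent replicates. Between retina and the 4 other cortex arrays the correlation was 0.879 to 0.893. It also held the lowest reading of site 2, -1.29, for Hk2. The median SD of log2 intensity over probes was 0.158 in retina and 0.225 in cortex, and 0.132 in cortex without replicate 5. Values below are over all 10 arrays. They are given without this array too where a named gene lost its call or a fold or count moved by more than 1.5 times.

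**Figure D1:**
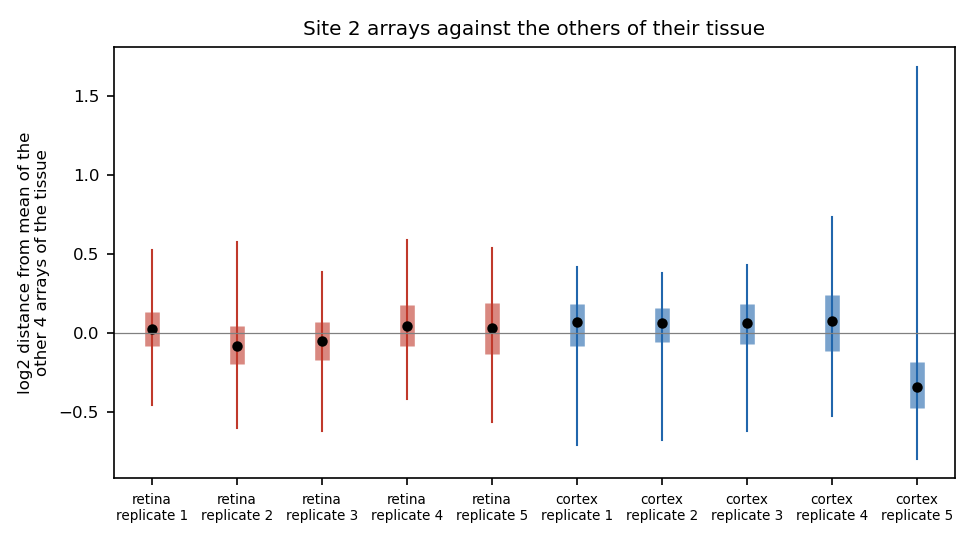
For each of the 10 site 2 arrays, the log2 distance of every probe from the average over its tissue's 4 remaining arrays. The dot is the median, the thick bar spans the 25th to 75th percentile and the thin line the 5th to 95th percentile of probes. Cortex replicate 5 has its median at -0.339 and the longest upper line.

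The test took probes with 3 or more positive values among the 5 arrays of every one of the study's 4 groups, and 10339 probes met this. It was called if the difference was at least 2-fold with a Benjamini-Hochberg adjusted p under 0.05 in limma, a linear model that shares information on the spread across probes. Of the tested probes, 1144 (11.1%) were called higher in retina and 1398 (13.5%) higher in cortex, together 2542 (24.6%). Without cortex replicate 5, 1085 of 10331 (10.5%) were called higher in retina and 1420 (13.7%) higher in cortex. The arrays of both tissues did not overlap for 2410 of the 2542 called probes (94.8%), against 48.2% of all tested probes. The median difference over all tested probes was -0.05 log2 (retina minus cortex), and -0.09 without that array. All differences below are log2 retina minus cortex unless a fold is given.

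The retinal calls had the longer tail. At 4-fold or more, 376 probes were higher in retina and 466 higher in cortex, whereas at 32-fold or more the counts were 41 and 11. At 64-fold or more they were 24 and 5. With the tested probes in 4 equal groups by brightness, the median standard error was 0.288 in the dimmest group, 0.143 in the next, 0.105 in the third and 0.0952 in the brightest. The share called was 16.1%, 33.2%, 27.2% and 21.8% in the same order, so it was lowest among the dimmest probes and highest in the group next to them. The lower tissue of a called probe was often dim. Among the 1144 probes higher in retina, cortex read below 0.195, the 25th percentile of all intensities, for 236, and among the 1398 higher in cortex, retina did so for 491. The folds of such probes depend on a background step that the sources used here do not give.

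The 10 genes with the largest differences towards retina were Gnat1, Mgarp, Rp1, Sag, Fabp12, Rom1, Ptpn14, Tulp1, Guca1a and Susd3, picked among called genes whose retina arrays all lay above the cortex arrays, so that separation was set by the choice. Gnat1 differed by 10.17 (SE 0.34), a 1152-fold difference between the readings given above. Sag, the rod arrestin that ends the light response, read 159.7, 152, 154, 131 and 138 in retina and 0.179, 0.178, 0.238, 0.239 and 0.186 in cortex, 726-fold higher in retina (difference 9.50, SE 0.31). The Sag readings varied more between retina arrays than those of Gnat1, with the lowest on replicate 4, and this spread was small beside the gap between the tissues. Rom1, a protein of the disc rim, read 138, 111, 113, 107 and 110.3 in retina and 0.197, 0.231, 0.207, 0.217 and 0.175 in cortex (563-fold). Its retina reading was highest on replicate 1. Rp1, which binds microtubules along the outer segment, read 46.2, 46.2, 52.4, 53.8 and 51.7 in retina and 0.0379, 0.0636, 0.04001, 0.119 and 0.0831 in cortex (799.7-fold). Tulp1, a protein needed for transport into the outer segment, read 64.5, 66.3, 57.1, 64.1 and 65.4 in retina and 0.256, 0.191, 0.192, 0.225 and 0.178 in cortex (307-fold). The Rp1 readings of cortex lay at the dim end of the scale and scattered more (SD 0.70 log2) than those of Tulp1 (SD 0.21 log2). The SE was also larger for Rp1 (0.39) than for Tulp1 (0.21), so the Rp1 fold is less well fixed. Every SE given here rests on a spread shared over the arrays of both sites. It therefore does not measure the scatter of the site 2 readings alone.

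Guca1a, the guanylate cyclase activator of photoreceptors, was the member of the 10 that depended on the outlying array. It read 68.03, 64.99, 69.04, 76.7 and 73.8 in retina and 0.0774, 0.0892, 0.364, 0.107 and 3.07 in cortex, where the last value belongs to cortex replicate 5. Its difference was 8.19 (SE 0.72, 291-fold) with all 10 arrays and 9.10 (549.9-fold) without cortex replicate 5, so leaving out this array moved the fold by more than 1.5 times. The other 9 genes of the group moved by less.

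Of the other members, Mgarp encodes a mitochondrial protein, is counted below with the outer segment and cilium list, and read 110.5, 111, 124, 106 and 126 in retina against 0.154, 0.153, 0.115, 0.179 and 0.116 in cortex (817-fold). Ptpn14, a tyrosine phosphatase, read 111, 105, 112, 120.0 and 117 in retina against 0.274, 0.234, 0.272, 0.234 and 0.205 in cortex (466-fold). Fabp12, a fatty acid binding protein, was dimmer in retina at 30.8, 30.9, 33.5, 31.7 and 37.2, and its cortex readings of 0.0463, 0.0411, 0.0272, 0.128 and 0.0592 spanned the widest range of this group after Guca1a. Susd3, which encodes a membrane protein with a sushi domain, read 24.3, 23.9, 22.6, 22.7 and 30.9 in retina against 0.0901, 0.108, 0.113, 0.0781 and 0.0768 in cortex (268-fold). The adjusted p of these 10 genes was at most 7.8e-09 in limma, that of Guca1a.

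Start-site sequences were at hand for 7 of these 10 genes in a RefSeq table (build GRCm38.p6, short windows that span each annotated start). They were searched for TAATCC, on either strand, the core sequence bound by homeodomain proteins of the OTX and CRX type that are known regulators of photoreceptor genes. The motif was present in the promoters of Sag and Guca1a and not in those of Mgarp, Ptpn14, Rom1, Susd3 and Tulp1. The 2 promoters that hold it are printed below, 5′ to 3′ on the strand of the gene, with the match in capitals (GGATTA is the same motif read on the other strand). The Sag window is chr1:87803430-87803729 on the plus strand, and its match begins 87 bases before the start. The Guca1a window is chr17:47400557-47400856 on the minus strand, with a match that begins 57 bases before the start.
Sag: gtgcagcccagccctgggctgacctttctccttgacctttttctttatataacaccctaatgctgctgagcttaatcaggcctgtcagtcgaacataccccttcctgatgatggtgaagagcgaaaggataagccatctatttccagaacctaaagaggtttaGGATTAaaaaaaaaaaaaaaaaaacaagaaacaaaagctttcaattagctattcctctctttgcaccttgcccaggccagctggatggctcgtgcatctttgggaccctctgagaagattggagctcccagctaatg
Guca1a: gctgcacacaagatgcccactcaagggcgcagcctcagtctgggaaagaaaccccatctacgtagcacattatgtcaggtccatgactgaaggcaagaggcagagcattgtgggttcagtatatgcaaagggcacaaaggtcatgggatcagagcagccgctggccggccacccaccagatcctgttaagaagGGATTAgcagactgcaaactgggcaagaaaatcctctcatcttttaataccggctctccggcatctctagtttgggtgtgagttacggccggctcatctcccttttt

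Counted over genes with at least 1 such promoter, TAATCC was present for 8.14% of the 27025 genes of the table and for 7% of the 7213 tested genes found in it. Among genes called higher in retina the share was 80 of 832 (9.62%), and among genes called higher in cortex 58 of 1010 (5.74%). In the phototransduction and outer segment lists it was 9 of the 29 tested genes with a promoter (31.0%), and 8 of the 21 called higher in retina (38.1%). These shares describe the letters in these windows and were not tested.

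The 10 genes with the largest differences towards cortex were Nts, Gh, Sox11, Neurod6, Fabp7, Sla, Avp, Myc, Pou3f1 and Marcksl1. Nts, the precursor of the neuropeptide neurotensin, read 0.0791, 0.0569, 0.0662, 0.0957 and 0.0696 in retina and 17.6, 17.4, 18.2, 14.7 and 13.1 in cortex, 222-fold higher in cortex (difference -7.80, SE 0.15). Gh, growth hormone, read 0.0514, 0.0302, 0.0474, 0.0429 and 0.0259 in retina and 5.296, 5.63, 5.701, 6.26 and 4.42 in cortex (142-fold). Avp, the vasopressin precursor, read 0.0564, 0.104, 0.0249, 0.07002 and 0.0617 in retina and 3.17, 2.55, 2.799, 2.55 and 1.73 in cortex (43.7-fold). In retina these 3 secreted peptides lay around the 5th percentile of all intensities (0.0448), while every cortex array read above 1.

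Sox11, a transcription factor of newborn neurons, read 0.172, 0.1095, 0.139, 0.147 and 0.189 in retina and 11.9, 12.8, 11.3, 11.6 and 12.8 in cortex (81.2-fold). A second, dimmer probe of Sox11 was not called. Fabp7, a fatty acid binding protein made by radial glia, was the brightest of the group at 89.7, 99.1, 99.5, 85.2 and 117 in cortex against 1.69, 1.53, 1.57, 1.72 and 1.64 in retina (59.9-fold). Sla, a Src-like adaptor protein, read 5.06, 5.02, 5.45, 6.195 and 4.32 in cortex and 0.0945, 0.0978, 0.0781, 0.123 and 0.134 in retina (49.96-fold). Cortex replicate 5 gave the highest cortex reading of Fabp7 and the lowest of Sla, and the folds without it were 57.2 and 52.3.

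Myc, which drives growth and proliferation, and Pou3f1, a POU-domain factor of developing cortex, were both raised on cortex replicate 5. Myc read 4.17, 4.18, 4.31, 3.77 and 7.13 in cortex and 0.106, 0.105, 0.106, 0.113 and 0.127 in retina, a 41.3-fold difference that was 36.96-fold without that array. Pou3f1 read 2.37, 2.51, 2.63, 2.26 and 5.81 in cortex and 0.126, 0.104, 0.0795, 0.0769 and 0.0769 in retina (31.9-fold, and 26.8-fold without it). Marcksl1, a protein of the actin-rich cell edge, read 3.68, 3.25, 3.67, 2.86 and 2.39 in cortex and 0.119, 0.0983, 0.0847, 0.179 and 0.0866 in retina (28.7-fold).

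**Figure D2:**
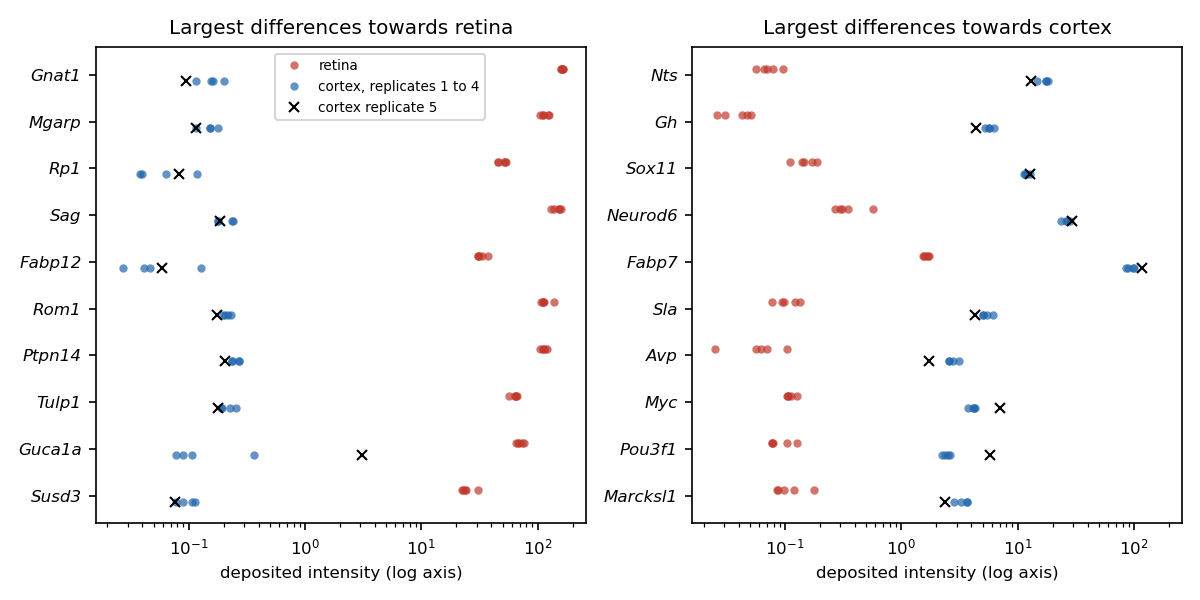
Deposited intensity (log axis) of the 10 genes with the largest difference in each direction, one row per gene. Red points are the 5 retina arrays, blue points cortex replicates 1 to 4 and black crosses cortex replicate 5. The 20 genes were chosen so that the tissues do not overlap, and the cross for Guca1a, at 3.07, is far from the other cortex points.

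Genes that read above 1 in both tissues rest less on the floor of the scale, and 435 of the 1144 probes higher in retina and 382 of the 1398 higher in cortex were of this kind. Led by size, those towards retina were Rcvrn, Plekhb1, Unc119, Car2 and Icmt. Rcvrn, recoverin, a calcium sensor of photoreceptors, read 54.8, 69.5, 51.8, 48.7 and 51.8 in retina and 1.41, 1.604, 1.799, 1.62 and 1.15 in cortex (36.7-fold). Its retina reading was highest on replicate 2. Unc119, a carrier of lipid-modified proteins such as transducin, read 96.2, 118, 94.6, 107 and 111 in retina and 5.19, 4.93, 5.08, 4.69 and 4.601 in cortex (21.4-fold). Car2, a carbonic anhydrase of Müller glia, read 32.9, 31.3, 37.7, 34.2 and 32.8 in retina and 1.77, 1.77, 1.91, 1.82 and 1.25 in cortex (20.01-fold). Plekhb1, a membrane protein with a pleckstrin homology domain, was 35.2-fold higher, and Icmt, which methylates prenylated proteins, 18.4-fold. Icmt had no value on cortex replicate 1, so its cortex mean rests on 4 arrays.

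Towards cortex, the same rule gave Fabp7, Cd24a, Nnat, Rac3 and Gap43. Cd24a, a surface glycoprotein of young neurons, read 2.37, 2.39, 2.35, 2.28 and 2.68 in retina and 68.4, 69.3, 70.9, 71.6 and 57.3 in cortex (27.9-fold). Nnat, the imprinted gene for neuronatin, read 1.57, 1.52, 2.03, 1.38 and 1.22 in retina and 35.7, 37.96, 40.9, 37.4 and 27.9 in cortex (23.5-fold). Gap43, a protein of growing axon tips, read 8.06, 7.798, 7.81, 8.197 and 8.51 in retina and 104, 107, 105, 99.4 and 126 in cortex (13.4-fold). Rac3, a small GTPase of neurons, was 15.7-fold higher in cortex. On Cd24a and Nnat cortex replicate 5 was the lowest cortex array, and on Gap43 it was the highest.

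Gene lists were described by how many of their tested members were called, beside the shares over all 9083 tested genes, of which 11.5% were called higher in retina and 14.2% higher in cortex. The lists group genes by a role or a cell type, some members also have other roles, and no test of a list was made. Lists and members were chosen with earlier results of these data known, so their shares are descriptions and not independent evidence. Without cortex replicate 5, 41 of the 74 counts (both directions of 37 lists) were the same and 28 differed by 1. The counts that differed by 2 were those of heat shock proteins towards retina (6 and 4 without the array), transporters towards cortex (9 and 7) and growth factors towards cortex (23 and 21), and larger changes were those of histones towards retina (11 and 8) and the proteasome system towards cortex (3 and 7). Phototransduction had the largest share towards retina: 15 of 16 tested members were called higher in retina and 0 higher in cortex, with a median difference of 6.10. Gucy2e, a guanylate cyclase of photoreceptors, was the exception. It read 0.428, 4.89, 0.438, 0.388 and 0.428 in retina and 0.302, 0.381, 0.342, 0.403 and 0.336 in cortex, a difference of 0.97 (adjusted p = 0.093 in limma), and the value of retina replicate 2 stood more than 10-fold above the other 4. Of 21 outer segment and cilium genes, 13 were called higher in retina and 2 higher in cortex (median 2.56). The 2 were Rpgr, a protein of the connecting cilium, and Kif3a, a motor of ciliary transport. Rpgr read 1.24, 1.13, 1.17, 1.297 and 1.201 in retina and 3.65, 3.55, 3.6, 4.06 and 2.97 in cortex (2.94-fold higher in cortex), and Kif3a 2.22, 2.21, 2.39, 1.84 and 2.37 in retina and 4.77, 4.61, 5.04, 5.52 and 3.95 in cortex (2.16-fold). Both genes also serve cilia of other cells.

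Among 13 retinal transcription factors, 9 were called higher in retina and 0 higher in cortex (median 1.76). Neurod4, a bHLH factor of bipolar and amacrine cells, read 19.3, 17.2, 18.4, 19.2 and 19.9 in retina and 0.188, 0.173, 0.212, 0.232 and 0.169 in cortex (97.2-fold). Otx2, a homeobox factor of photoreceptors and bipolar cells, read 12.9, 12.7, 12.4, 13.3 and 13.4 in retina and 0.564, 0.576, 0.575, 0.692 and 0.485 in cortex (22.5-fold). Lhx4 gave nearly equal readings of 0.849, 0.789, 0.813, 0.896 and 0.942 in retina and 0.758, 0.774, 0.922, 0.911 and 0.615 in cortex (difference 0.12). Of 24 genes of inner retinal neurons, 17 were called higher in retina and 1 higher in cortex (median 1.77). Pcp2, a G-protein regulator of bipolar cells, led at 45.3, 42.4, 44.6, 44.03 and 48.5 in retina and 0.764, 0.725, 0.683, 0.677 and 0.654 in cortex (64.2-fold). Sncg, gamma-synuclein, known from ganglion cells, read 13.4, 12.6, 13.2, 13.1 and 14.2 in retina and 0.327, 0.321, 0.286, 0.286 and 0.198 in cortex (47.5-fold). Gad2, which makes the transmitter GABA, was the gene called higher in cortex (2.16-fold), with 0.339, 0.263, 0.274 and 0.275 in retina on 4 arrays and 0.601, 0.6399, 0.607, 0.608 and 0.633 in cortex. At the first site it was 1.10-fold higher in cortex and not called.

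Glycolysis was the metabolic list with the strongest shift. Of 20 tested enzymes, 15 were called higher in retina and 0 higher in cortex (median 1.68). Hk2, hexokinase 2, read 31.95, 32.6, 28.5 and 35.03 on 4 retina arrays. On cortex it had 0.851, 0.864 and 0.847 on 3 arrays, was blank on replicate 3 and was the reading below 0 on replicate 5, which has no log, so its 37.4-fold difference uses 3 cortex arrays. Aldoa, aldolase A, was measured on all 10 arrays, at 27.8, 26.4, 25.8, 23.7 and 24.5 in retina and 3.59, 3.74, 3.99, 3.68 and 2.54 in cortex (7.37-fold). The mitochondrial list behaved differently: of 67 genes of the TCA cycle, respiratory chain and ATP synthase, 4 were called higher in retina and 1 higher in cortex (median 0.04), below the share of all genes in both directions. The 2 largest of the 4 were Cox8b and Cox4i2, both tissue-restricted subunits of cytochrome oxidase, at 19.1-fold and 7.5-fold, each dim in cortex (0.102 and 0.253 on average). Idh2, mitochondrial isocitrate dehydrogenase, was the gene called higher in cortex (-1.04), and the call was lost without cortex replicate 5 (-0.95). Among 35 transporters, 6 were called higher in retina and 9 higher in cortex. Slc16a3, which exports lactate, read 2.94, 2.52, 2.804, 3.08 and 2.95 in retina and 0.439, 0.428, 0.403, 0.392 and 0.342 in cortex (7.14-fold). Slc38a3, a glutamine transporter, was 9.29-fold higher in retina, while Slc1a4, a neutral amino acid transporter, was 7.77-fold and Slc7a10 4.08-fold higher in cortex.

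Signalling lists split between the tissues. Of 41 synaptic vesicle and exocytosis genes, 10 were called higher in retina and 7 higher in cortex (median 0.21). Stx3, the syntaxin of ribbon synapses, read 6.18, 5.96, 7.38, 5.89 and 6.33 in retina and 0.205, 0.236, 0.187, 0.202 and 0.166 in cortex (31.9-fold). Rab3b, a vesicle GTPase, went the other way, with 1.13, 0.978, 1.19, 1.196 and 1.01 in retina and 9.203, 9.105, 10.7, 9.62 and 6.81 in cortex (8.21-fold). Ctbp2, whose gene also encodes the ribbon protein RIBEYE, was 5.49-fold higher in retina, and Syngr3, a vesicle membrane protein, 3.87-fold higher in cortex. Of 53 G-protein subunits, RGS proteins and cyclic nucleotide enzymes outside phototransduction, 4 were called higher in retina and 18 higher in cortex (median -0.39). Gnb4 and Gng12, a G-protein beta and a gamma subunit, led towards cortex at 12.02-fold and 9.02-fold. Pde8a, a cyclic AMP phosphodiesterase, led towards retina at 8.14-fold, with 4.35, 3.55, 3.66, 4.01 and 3.31 in retina and 0.334, 0.364, 0.368, 0.373 and 1.26 in cortex, the last of these from cortex replicate 5, and Rgs16 followed at 3.31-fold.

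Of 48 potassium and HCN channel genes, 9 were called higher in retina and 7 higher in cortex. Kcna5, a voltage-gated channel, read 12.7, 12.1, 12.97, 14.2 and 13.4 in retina and 0.855, 0.6797, 0.6501, 0.63 and 0.595 in cortex (19.3-fold). Kcnab2, an accessory beta subunit, was 8.25-fold higher in retina. Kcnj4, an inward rectifier, and Kcnmb4, a beta subunit of the large calcium-activated channel, were 2.96-fold and 2.97-fold higher in cortex. Among 38 sodium, calcium and chloride channel genes, 4 were called higher in retina and 7 higher in cortex, and the calcium channel subunits parted. Cacna1f, the pore subunit of photoreceptor terminals, read 9.79, 10.5, 9.54, 11.8 and 10.5 in retina and 2.34, 2.29, 2.55, 1.89 and 1.66 in cortex (4.91-fold). Its close relative Cacna1c, widespread in brain and heart, read 0.3796, 0.684, 0.323, 0.298 and 0.325 in retina and 2.72, 2.66, 2.79, 2.72 and 2.097 in cortex (6.77-fold higher in cortex). Of the beta subunits, Cacnb2 was 8.33-fold higher in retina and Cacnb1 6.58-fold higher in cortex.

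Of 51 receptors for transmitters, 6 were called higher in retina and 12 higher in cortex (median -0.34). The dopamine receptors Drd4 and Drd2 led towards retina. Drd4 read 3.605, 3.53, 3.65, 3.71 and 2.93 in retina and 0.427, 0.419, 0.428, 0.574 and 0.348 in cortex (8.01-fold), and Drd2 read 3.16, 2.75, 2.93, 3.496 and 2.95 in retina and 0.487, 0.447, 0.399, 0.509 and 0.374 in cortex (6.92-fold). Grm3, a metabotropic glutamate receptor, read 0.567, 0.6004, 0.583, 0.505 and 0.606 in retina and 6.45, 6.098, 6.47, 6.06 and 5.67 in cortex (10.8-fold higher in cortex). Gria2, the AMPA receptor subunit that limits calcium entry, was 5.33-fold higher in cortex. Of 20 neuropeptide genes outside the pituitary and hypothalamus list, 4 were called higher in retina and 7 higher in cortex. Vip and Tac2, the precursors of vasoactive intestinal peptide and neurokinin B, were 8.01-fold and 7.96-fold higher in retina. For Tac2 the cortex readings of 0.157, 0.1596, 0.689, 0.197 and 0.0941 included a high one on replicate 3. Cort, the precursor of cortistatin, was 24.3-fold higher in cortex, at 1.41, 1.64, 1.45, 1.67 and 4.32 there and 0.0819, 0.1002, 0.0405, 0.115 and 0.0746 in retina, and 19.8-fold without cortex replicate 5.

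**Figure D3:**
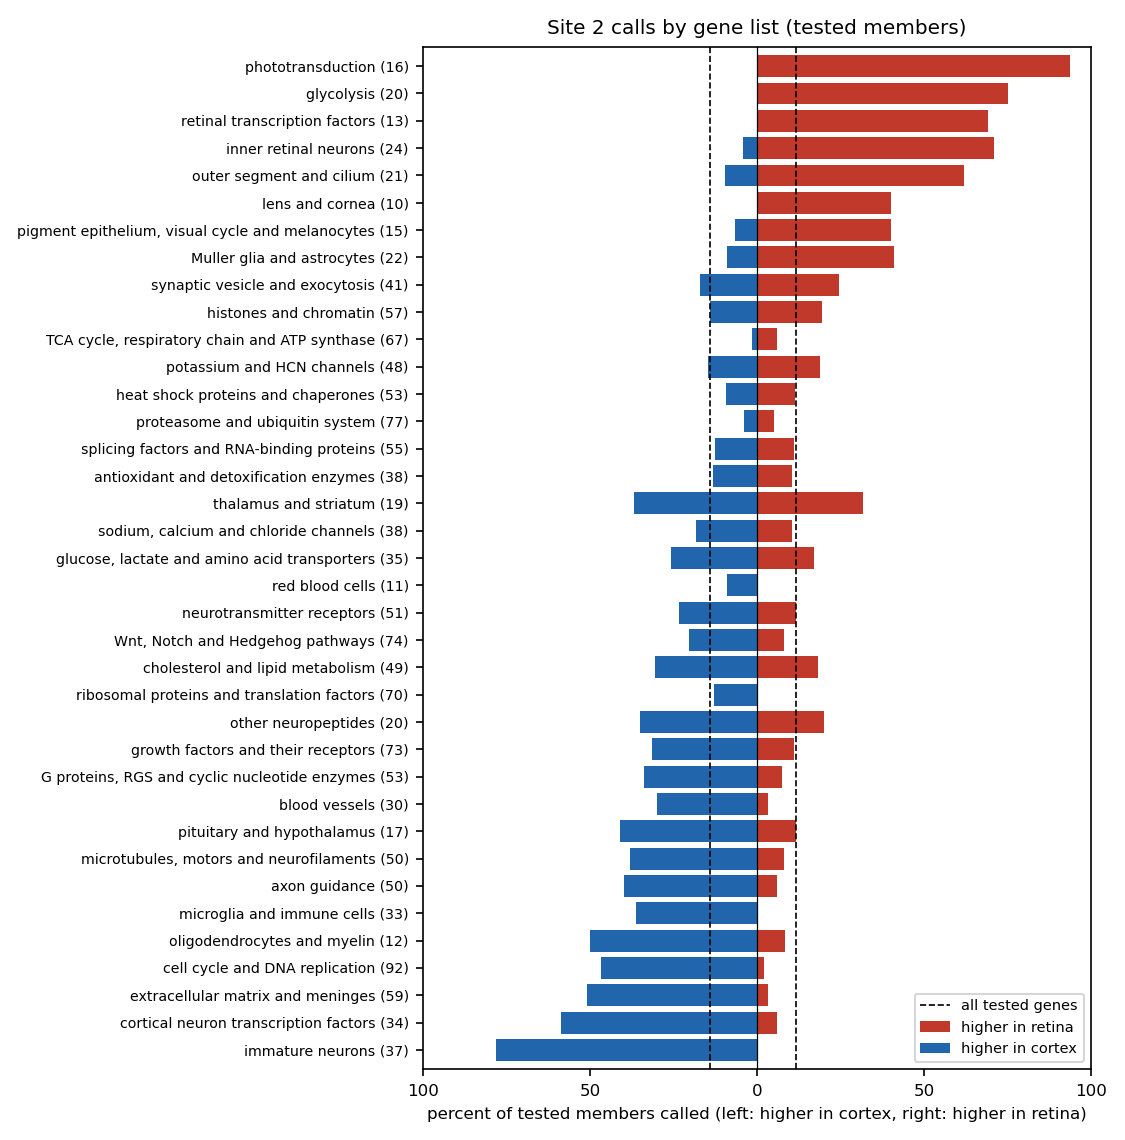
Share of tested members called at site 2 for each of the 37 gene lists, in percent, with the number of tested members in brackets. Red bars to the right are members higher in retina, blue bars to the left members higher in cortex, and dashed lines mark the shares over all tested genes, 11.5% and 14.2%. Phototransduction (93.8% higher in retina) and immature neurons (78.4% higher in cortex) are at the ends.

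Genes of immature neurons formed the list with the largest share towards cortex: 29 of 37 were called higher in cortex and 0 higher in retina (median -1.86). Beside Sox11, Marcksl1, Nnat and Gap43, this list has Stmn2, a microtubule regulator of growth cones, at 6.59, 6.79, 6.48, 7.46 and 7.03 in retina and 64.1, 61.7, 58.6, 73.1 and 45.01 in cortex (8.71-fold). Of 34 cortical neuron transcription factors, 20 were called higher in cortex and 2 higher in retina (median -1.82). The 2 were Meis1, a homeobox factor, and Nhlh2, a bHLH factor. Meis1 read 9.98, 9.34, 9.1, 10.5 and 12.1 in retina and 1.49, 1.53, 1.44, 1.29 and 3.19 in cortex (6.03-fold), with the highest cortex value on replicate 5, and Nhlh2 was 6.51-fold higher. Axon guidance genes were called higher in cortex in 20 of 50 cases and higher in retina in 3 (median -0.72). Sema3c, a secreted semaphorin, read 0.882, 0.907, 1.01, 1.07 and 3.09 in cortex and 0.191, 0.169, 0.1603, 0.176 and 0.124 in retina (7.497-fold, 5.94-fold without cortex replicate 5). Nrp1, a semaphorin co-receptor, was 7.43-fold higher in cortex. Slit2, a repellent ligand, read 9.59, 8.06, 9.101, 9.05 and 10.8 in retina and 2.57, 2.52, 2.35, 2.04 and 1.96 in cortex (4.08-fold), and Epha3, an ephrin receptor, was 2.96-fold higher in retina.

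The cytoskeleton list pointed the same way with exceptions that were large. Of 50 genes of microtubules, motors and neurofilaments, 19 were called higher in cortex and 4 higher in retina (median -0.63). Stmn4, a stathmin of neurons, read 5.25, 5.14, 5.199, 4.64 and 4.6 in retina and 44.9, 48.9, 46.8, 51.7 and 43.4 in cortex (9.49-fold). Nefh, the heavy neurofilament of large mature axons, read 1.604, 1.199, 1.35, 1.57 and 1.97 in retina and 0.124, 0.124, 0.0788, 0.121 and 0.0971 in cortex (14.1-fold higher in retina), and Map4, a microtubule-associated protein, was 2.87-fold higher in retina.

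Cell cycle and DNA replication had 43 of 92 tested genes called higher in cortex and 2 higher in retina (median -0.92). Mki67, the proliferation marker Ki-67, read 0.122, 0.0886, 0.116, 0.1198 and 0.127 in retina and 3.69, 3.44, 3.53, 2.83 and 2.85 in cortex (28.6-fold, difference -4.84, SE 0.15). Chaf1b, a histone chaperone of replicating DNA, was 5.91-fold higher in cortex. The genes higher in retina were Cdkn2c, an inhibitor of cyclin-dependent kinases, and Cdc25a, a phosphatase that activates them. Cdkn2c read 1.14, 1.19, 1.18, 1.12 and 1.21 in retina and 0.592, 0.571, 0.629, 0.483 and 0.424 in cortex (2.19-fold). Cdc25a read 0.817, 0.748, 0.874, 1.099 and 1.02 in retina and 0.325, 0.485, 0.729, 0.496 and 0.324 in cortex, a 2.003-fold difference at the edge of the threshold that was not called without retina replicate 4 or 5 or without cortex replicate 1 or 5 (0.88 log2 without the last). Of members of other lists, Spc25, which is counted with Müller glia and astrocytes and also known as a kinetochore component, read 15.1, 13.99, 12.01, 14.95 and 13.7 in retina and 0.601, 0.578, 0.578, 0.555 and 0.484 in cortex (24.9-fold), and Skp2 of the ubiquitin list, a ligase subunit that acts on cell cycle inhibitors, was 3.798-fold higher in retina.

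The promoters of the cell cycle list were searched for TTTGAA, the core of the element named CHR that is known from late cell cycle genes, and for CCAAT, a box often found beside it, each on both strands. TTTGAA was present for 25 of the 73 tested members with a promoter (34.2%), for 14 of the 36 called higher in cortex (38.9%), for 15.3% of all tested genes and for 20.2% of the whole table. CCAAT was present for 51 of the 73 (69.9%), against 42.5% of tested genes and 41.1% of the table. TAATCC was present for 0 of the 73. Matches of these motifs can share end letters where they meet, and the shares were not tested. The Mki67 promoter is shown because it holds TTTGAA more than once and belongs, after Myc, to the cell cycle gene with the largest difference. It lies at chr7:135716330-135716629 on the minus strand, with matches (capitals; TTCAAA is the other strand) beginning 116 and 98 bases before the start.
Mki67: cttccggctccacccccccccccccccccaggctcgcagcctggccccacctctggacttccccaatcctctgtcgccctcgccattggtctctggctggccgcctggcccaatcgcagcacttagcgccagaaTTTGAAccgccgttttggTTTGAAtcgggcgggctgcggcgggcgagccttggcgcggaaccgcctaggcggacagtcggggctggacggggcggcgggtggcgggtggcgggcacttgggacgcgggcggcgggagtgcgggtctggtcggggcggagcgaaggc

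Developmental signals and matrix were also called more often towards cortex. Of 74 genes of the Wnt, Notch and Hedgehog pathways, 15 (20.3%) were called higher in cortex and 6 (8.1%) higher in retina (median -0.36). These shares lie nearer to those of all tested genes, 14.2% and 11.5%, than the shares of the matrix list below do. Tcf7l2, a transcription factor of Wnt signalling, read 0.0889, 0.0748, 0.06898, 0.0466 and 0.0775 in retina and 1.05, 1.24, 1.28, 1.55 and 0.935 in cortex (17.1-fold). Dkk3, a secreted protein of the Dickkopf family, read 11.6, 12.3, 11.3, 9.95 and 9.19 in retina and 1.99, 1.87, 2.29, 2.69 and 1.57 in cortex (5.27-fold higher in retina). Sfrp2, a secreted Wnt-binding protein, was 7.34-fold higher in cortex and Hey2, a target of Notch signalling, 3.37-fold higher in retina. Among 73 growth factors and receptors, 23 were called higher in cortex and 8 higher in retina. Igfbp3, which binds insulin-like growth factors, and Fgfr3, a fibroblast growth factor receptor, were 8.76-fold and 7.47-fold higher in cortex. Fgf1 was 5.89-fold and Kdr, the main receptor for VEGF, 4.13-fold higher in retina, and Kdr read 7.79, 7.11, 7.84, 8.68 and 7.89 in retina and 2.28, 1.897, 1.96, 1.904 and 1.53 in cortex. Of 59 genes of extracellular matrix and meninges, 30 were called higher in cortex and 2 higher in retina (median -1.02). Dcn, decorin, and Lum, lumican, small proteoglycans of connective tissue, were 18.9-fold and 15.1-fold higher in cortex. Lum read 0.0632, 0.0552, 0.0669, 0.0441 and 0.06402 in retina and 0.907, 0.9199, 0.868, 1.04 and 0.696 in cortex. Vtn, vitronectin, was the large exception, at 31.1, 29.02, 28.6, 33.6 and 30.97 in retina and 2.31, 2.02, 2.198, 1.99 and 2.98 in cortex (13.4-fold), and Adamts1, a matrix protease, was 2.296-fold higher in retina.

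Lists of glia and other cell types were counted in the same way. Of 22 genes of Müller glia and astrocytes, 9 were called higher in retina and 2 higher in cortex (median 0.31). Those called towards cortex were Gja1, connexin 43, at 0.266, 0.273, 0.342, 0.294 and 0.358 in retina and 1.74, 1.99, 2.07, 2.08 and 1.79 in cortex (6.34-fold), and Aldh1l1, an astrocyte enzyme (2.19-fold, with both tissues dim, and not called without retina replicate 5 or cortex replicate 4). Of 12 oligodendrocyte and myelin genes, 6 were called higher in cortex and 1 higher in retina. Olig1, a factor of the lineage, read 0.0245, 0.152, 0.0504, 0.0467 and 0.0342 in retina and 0.933, 0.993, 1.05, 1.04 and 0.662 in cortex (18.6-fold), and Cldn11, a tight junction protein of myelin, was 13.6-fold higher in cortex. Mal, a myelin lipid-raft protein, was 2.47-fold higher in retina. Of 33 microglial and immune genes, 12 were called higher in cortex and 0 higher in retina (median -0.68). Coro1a, an actin regulator of leukocytes, was 5.96-fold higher in cortex, with values on 3 retina arrays. Of 30 vessel genes, 9 were called higher in cortex and 1, Kdr, higher in retina (2 without cortex replicate 5). Cldn5, the claudin of brain endothelium, read 2.07, 2.12, 2.04, 1.92 and 2.29 in retina and 10.98, 10.7, 11.1, 8.59 and 7.53 in cortex (4.64-fold). Tie1, an endothelial receptor, was 3.404-fold higher in cortex, with a retina reading of 1.39 on replicate 2 against at most 0.416 on the other 4. Of 11 red cell genes, 1 was called (9.09%, higher in cortex), against 14.2% of all tested genes called higher in cortex. Without cortex replicate 5, 2 were called. The gene called on all arrays was Hba-a1, a haemoglobin alpha chain, at 13.1, 10.3, 12.1, 10.3 and 10.5 in retina and 63.1, 60.4, 60.6, 65.2 and 50.4 in cortex (5.32-fold). Globin genes have near-identical copies, and the probe may read more than one of them.

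Markers of tissues next to the dissections were read as whole lists. Of 15 genes of pigment epithelium, visual cycle and melanocytes, 6 were called higher in retina and 1 higher in cortex. Rpe65, the retinoid isomerase of the pigment epithelium, read 5.26, 4.85, 5.17, 4.997 and 6.14 in retina and 0.145, 0.163, 0.221 and 0.144 in cortex on 4 arrays (31.8-fold), and Krt18, a keratin of simple epithelia, 5.93, 5.095, 5.22, 5.798 and 6.47 in retina and 0.212, 0.208, 0.172, 0.212 and 0.164 in cortex (29.5-fold). Ttr, transthyretin, a product of pigment epithelium and choroid plexus, was 2.41-fold higher in cortex, at 35.9, 33.7, 32.6, 32.3 and 33.7 in retina and 85.8, 84.3, 80.7, 86.4 and 69.6 in cortex. The summed intensity of 12 members with a value on all 10 arrays was 49.7 to 53.9 in retina and 75.1 to 91.8 in cortex, and Ttr made up most of the cortex sum. Of 10 lens and cornea genes, 4 were called higher in retina and 0 higher in cortex, with a summed intensity of 15.3 to 19.0 in retina and 8.16 to 8.95 in cortex over all 10. Cryba4, a lens crystallin, was 7.78-fold and Cryab, a small heat shock protein, 6.32-fold higher in retina. The part of adjoining eye tissue in the retina readings was not tested.

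On the brain side, 7 of 17 pituitary and hypothalamus genes were called higher in cortex and 2 higher in retina, led by Gh and Avp. Prl, the pituitary hormone prolactin, read low in both tissues, at 0.0582 in retina and 0.0566 in cortex on average (difference 0.04, not called). The genes called higher in retina were Cartpt, a peptide precursor, and Chga, a granule protein. Cartpt read 31.3, 28.8, 27.2, 31.2 and 35.4 in retina and 0.619, 0.663, 0.659, 0.774 and 0.516 in cortex (47.8-fold), and Chga 3.94, 3.85, 3.88, 4.12 and 4.09 in retina and 2.09, 2.102, 2.12, 2.196 and 1.48 in cortex (2.01-fold, and not called without retina replicate 4 or 5 or cortex replicate 5). The summed intensity of 16 members was 38.1 to 46.1 in retina and 27.4 to 29.1 in cortex, so the list as a sum was higher in retina, where Cartpt alone read around 30.6. Of 19 thalamus and striatum genes, 6 were called higher in retina and 7 higher in cortex, with sums of 97.4 to 105 and 51.9 to 62.9. Tcf7l2, given above with Wnt signalling, and Zic1, a zinc finger factor, were 17.1-fold and 8.44-fold higher in cortex. Drd2, given above with the receptors, and Rora, an orphan nuclear receptor also made in retina, were 6.92-fold and 6.301-fold higher in retina. For red cells the sums were 33.4 to 37.9 in retina and 71.6 to 90.5 in cortex. Most of this gap came from Hba-a1, the only member called on all arrays, at 11.2 in retina and 59.7 in cortex on average. For vessels the sums were 26.0 to 27.9 in retina and 32.4 to 40.6 in cortex. For microglia they were 35.8 to 38.0 and 62.8 to 67.5, and for oligodendrocytes 14.1 to 19.6 and 21.2 to 25.1. Matrix and meninges summed to 102 to 113 in retina and 113 to 117 in cortex. In these lists no member with values on all 10 arrays read at or below 0, and none lay under the 5th percentile of intensities in both tissues on average. The part of blood, vessels, meninges, pituitary, hypothalamus, thalamus or striatum in the cortex readings was not tested.

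General cell functions were covered by 7 lists. Of 77 genes of the proteasome and ubiquitin system, 4 were called higher in retina and 3 higher in cortex (7 without cortex replicate 5). Psmb8, an immunoproteasome subunit, was 4.405-fold higher in retina, and Uchl1, a neuronal deubiquitinase, read 22.99, 22.6, 20.8, 23.2 and 24.4 in retina and 75.9, 79.8, 82.1, 80.01 and 65.2 in cortex (3.36-fold higher in cortex). Cul7, a ubiquitin ligase scaffold, was 2.32-fold higher in cortex. Of 70 ribosomal proteins and translation factors, 9 were called higher in cortex and 0 higher in retina (median -0.39). Rps20 read 0.491, 0.519, 0.585, 0.553 and 0.553 in retina and 3.15, 3.37, 3.09, 3.37 and 2.67 in cortex (5.79-fold) and Rpl29 0.404, 0.373, 0.446, 0.532 and 0.635 in retina and 1.34, 1.204, 1.26, 1.29 and 1.16 in cortex (2.66-fold). These readings are low for ribosomal proteins, and near-identical processed copies of such genes make their probes uncertain. Of 55 splicing and RNA-binding genes, 6 were called higher in retina and 7 higher in cortex. Pcbp3 and Pcbp2, which bind poly(C) RNA, were 9.05-fold and 3.06-fold higher in retina, and Igf2bp3 and Rbfox2 4.05-fold and 3.56-fold higher in cortex.

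Of 57 histone and chromatin genes, 11 were called higher in retina and 8 higher in cortex. Kat2b, a histone acetyltransferase, was 5.82-fold higher in retina and Smarcd3, a subunit of the BAF remodelling complex in neurons, 6.23-fold higher in cortex, with 1.99, 1.78, 1.86, 2.24 and 1.89 in retina and 12.9, 12.95, 13.1, 13.04 and 9.22 in cortex. Of 53 heat shock proteins and chaperones, 6 were called higher in retina and 5 higher in cortex. Hspa1b, an inducible Hsp70, read 15.8, 15.4, 14.5, 16.4 and 17.1 in retina and 1.09, 1.16, 0.962, 1.09 and 0.934 in cortex (15.2-fold), although it has a near-identical neighbour, Hspa1a, that the probe may also read. Hspb3, a small heat shock protein, read 0.341, 0.286, 0.352, 0.358 and 0.373 in retina and 2.7, 2.58, 2.58, 2.69 and 2.09 in cortex (7.39-fold higher in cortex). Among 38 antioxidant and detoxification enzymes, 4 were called higher in retina and 5 higher in cortex. Gsta4, a glutathione transferase, was 3.97-fold higher in retina, and Cat, catalase, read 7.29, 6.15, 6.25, 6.37 and 6.36 in retina and 14.97, 15.6, 15.2, 14.96 and 12.98 in cortex (2.28-fold higher in cortex). Of 49 cholesterol and lipid genes, 9 were called higher in retina and 15 higher in cortex. Fabp4, a fatty acid binding protein of fat cells and vessels, read 1.697, 1.51, 1.47, 1.63 and 1.97 in retina and 0.0848, 0.0868, 0.0862, 0.0718 and 0.0727 in cortex (20.5-fold), and Apod, apolipoprotein D, 0.245, 0.242, 0.246, 0.213 and 0.2198 in retina and 2.29, 2.32, 2.401, 2.54 and 1.699 in cortex (9.58-fold higher in cortex).

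The outlying array changed which probes were called more than how many. Of the 2542 called probes, 2342 were also called without cortex replicate 5, 200 were not, and 163 others were called without it alone. 0 probes were called in opposite directions. Of the 200, 111 had been higher in retina and 89 higher in cortex. The largest lost differences belonged to Ptprc, Sema6b, 1700001L05Rik, Inhbc and Apc2. Apc2, a relative of the tumour suppressor Apc in neurons, read 0.179, 0.129, 0.115, 0.1704 and 0.19 in retina and 0.399, 0.205, 0.316, 0.2302 and 9.702 in cortex, the last from replicate 5, and its difference went from -1.88 to -0.85 without it. Sema6b, a membrane semaphorin, read 0.0834, 0.107, 0.134, 0.215 and 9.64 in cortex and 0.132, 0.0671, 0.03, 0.0742 and 0.0712 in retina (from -2.16 to -0.91), and Inhbc, an inhibin beta subunit, 0.0733, 0.0686, 0.0677, 0.0688 and 4.66 in cortex and 0.0276, 0.0382, 0.0235, 0.0844 and 0.0403 in retina (from -2.07 to -0.86). Ptprc, the leukocyte surface phosphatase CD45, had values of 0.000383, 0.0636, 0.0269, 0.0825 and 0.1404 in retina and 0.102, 0.0841, 0.0919, 0.149 and 1.88 in cortex. Here the lowest retina value and the highest cortex value both stood far out, and the difference was -2.96 with the array (SE 1.18) and -2.13 without it. 1700001L05Rik was dim throughout, with a retina array at 0.00104, and moved across the threshold through its p-value (adjusted p = 0.046 and 0.051 in limma). Without retina replicate 5, the array with that reading, its difference was -1.04 (adjusted p = 0.12), against -2.12 with all arrays.

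Some bright genes could not be tested. Of the 161 untested probes, 13 had values on all 5 arrays of one tissue and on at most 2 of the other. The brightest were Hmgn2, Mink1, Scnm1, Dele1 and Scd1. Hmgn2, a nucleosome-binding protein, read 90.6, 129, 94.1, 92.5 and 108 in retina and 72.1 on the single cortex array with a value. Mink1, a kinase, read 8.69, 7.796, 8.48, 9.36 and 8.25 in retina and 5.50 on that array. Scnm1, a splicing protein, read 6.71, 6.16, 7.18, 7.28 and 7.79 and 6.23, and Scd1, a fatty acid desaturase, 3.43, 3.95, 3.65, 3.67 and 3.85 and 0.68. In all 4 the array with a value was cortex replicate 1, and the other cortex arrays were blank. Dele1, a mitochondrial stress protein, was the reverse case, with 4.496, 4.64, 4.68, 4.69 and 3.83 in cortex and 4.24 and 5.28 on retina replicates 1 and 4. Hmgn1, a relative of Hmgn2, was tested on 3 cortex arrays (4.64-fold higher in retina) and fell below the number of values needed without cortex replicate 5.

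The same pools had been measured at the first site, where 2574 probes were called. Of these, 2052 were called at site 2 too, which is 79.7% of the first-site calls and 80.7% of the site 2 calls, and 2052 had the same direction. The sites use different arrays, so the difference between their tissue contrasts could be tested in the same limma fit, with the same threshold. It was called for 75 probes (0.725%): 28 (0.271%) with a larger and 47 (0.455%) with a smaller retina minus cortex value at site 2. Without cortex replicate 5 the number was 121, of which 70 were among the 75, and with array weights it was 155.

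The 5 largest positive changes belonged to Gnat1, Mgarp, Ptpn14, Sag and Rom1, all among the 10 leading retinal genes. The leading genes of each direction were picked for their site 2 difference, which favours a larger difference there than at the first site. This overlap therefore follows in part from the choice. The Gnat1 difference was 5.34 at the first site and 10.17 at site 2, a change of 4.83 (SE 0.49, adjusted p = 4.6e-05 in limma). Its mean retina reading went from 108 at the first site to 163, and its mean cortex reading from 2.66 to 0.141, so at site 2 the mean was higher in retina and lower in cortex. Mgarp changed by 3.89 (SE 0.49), with mean cortex readings of 1.35 at the first site and 0.141 at site 2. Ptpn14 changed by 3.33 (SE 0.35), with 1.33 and 0.242, Sag by 3.30 and Rom1 by 3.13. Of the other leading retinal genes Rp1 changed by 2.66, Tulp1 by 1.55 and Susd3 by 1.23, all called, while the changes of Fabp12 (1.19) and Guca1a (1.87) were not. Without cortex replicate 5 the Guca1a change was 2.79 and was called. Among the 10 leading cortical genes, Sla (-1.61) and Fabp7 (-1.13) were called.

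In the other direction the leading genes were dim. Izumo3, a gene of the sperm membrane, had a mean retina reading of 0.356 at the first site against 0.06802 here, and a mean cortex reading of 0.0661 against 0.0917 (change -2.86, SE 0.50). Tspan1, a tetraspanin, had a retina mean of 0.329 and a cortex mean of 0.07699 at the first site, against 0.0897 in retina and 0.0905 in cortex at site 2 (change -2.11). For both, the tissues overlapped at site 2 and the site 2 difference was not called. Cdc25c, a mitotic phosphatase, changed by -1.81, from a difference of 0.49 at the first site, towards retina and not called. At site 2 it was 2.5-fold higher in cortex, with 0.129, 0.0547, 0.116, 0.0927 and 0.0941 in retina and 0.176, 0.233, 0.322, 0.297 and 0.178 in cortex. Gnaq, a G-protein alpha subunit, changed by -1.80 and read 0.5701, 0.679, 0.897, 0.823 and 2.196 in cortex at site 2, the last value from replicate 5, against 0.167, 0.103, 0.208, 0.154 and 0.121 in retina. Pard6b, a cell polarity protein, changed by -1.77 and was not called at site 2.

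**Figure D4:**
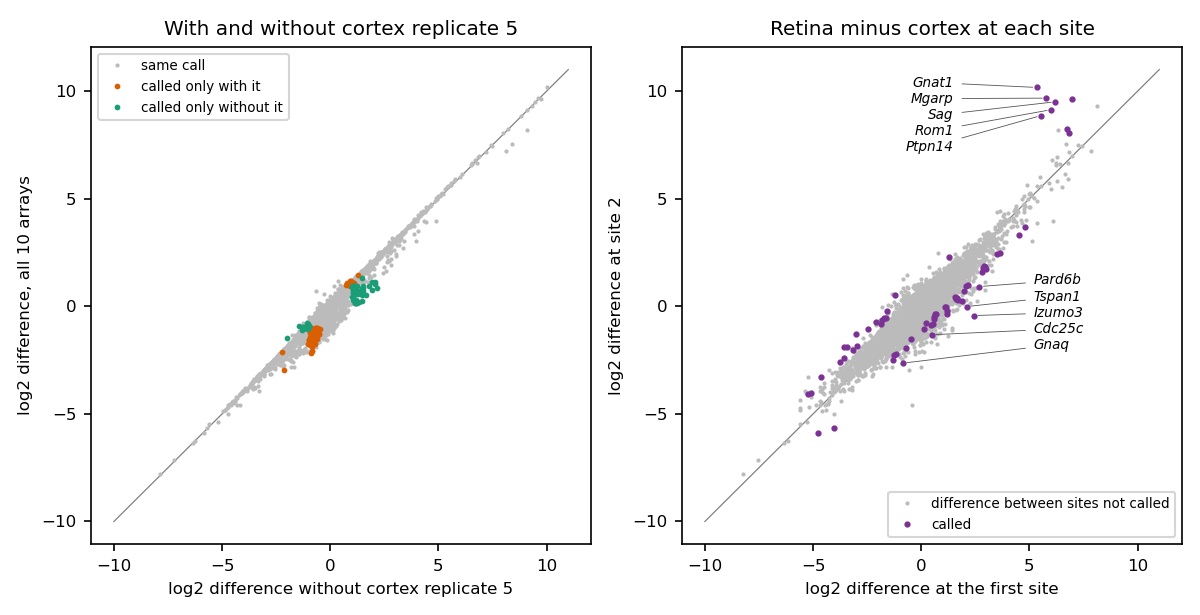
Log2 differences (retina minus cortex) of all tested genes. On the left, all 10 site 2 arrays against the same without cortex replicate 5, with genes called only with it in orange and only without it in green. On the right, site 2 against the first site, with genes whose difference between the sites was called in purple and the 10 leading ones named. Gnat1, at 10.17 on the vertical axis, lies farthest above the diagonal on the right.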

How the data were processed

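Expression was measured on 20 CodeLink arrays, of which the 10 of site 2 were compared here. Per the labels' protocols, RNA was labelled with biotin by the CodeLink Expression Assay. The authors deposited 1 intensity per probe and array on a linear scale. The sources used here do not name the scanner software, the background correction or the scaling. Array titles set the groups. Of 10500 probes, 9378 had 1 gene symbol in the platform annotation, 8 had several and 1114 none. Entrez identifiers of 9323 probes matched a RefSeq table (GRCm38.p6), which changed 0 symbols.

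Positive intensities were converted to log2, other values counted as missing, and the deposited scaling was kept. Of the probes, 161 had fewer than 3 values in some group and were not tested. One limma 3.58.1 model (R 4.3.3) with 4 group means was fitted to all 20 arrays, with 16 residual and 2.16 prior degrees of freedom. Calls needed a 2-sided adjusted p under 0.05 over all tested probes and a 2-fold difference. On simulated data with 200 changed probes among 10339, 95% of those changed by 1.5 log2 and 98% of those changed by 3 log2 were called, as were 31 unchanged probes. The simulation drew independent normal noise and changed far fewer probes than were called here, so it does not give the error rate of these calls. Precision is limited by the number of arrays.

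Where a gene had several probes, the one with the highest mean log2 intensity stood for it. Genes named include the 10 largest called differences each way without overlap of arrays and the 5 largest each way above 1 in both tissues. From each list, candidates were up to 2 of the largest called differences each way and the member with the smallest difference. Not every list candidate is named, and most members with the smallest difference are not. Also named were the 5 largest changes between sites each way, the 5 largest calls lost without cortex replicate 5, and the 5 brightest untested genes. Members and lists were chosen with earlier results of these data known. Tables and plots were made with Python 3.11.15, and alternatives changed one choice at a time. Some markers of the labelled tissues are not reported here.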

Additional observations from a re-analysis of the deposited data

Results flagged for a closer look

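Cortex replicate 5 of site 2 lay farthest from its group among the site 2 arrays, with a median absolute distance of 0.392 log2 from the mean of the other cortex arrays. Among the named genes other than Prl, 290 groups of 4 or 5 readings were examined for a single reading far from the rest. Of the groups, 45 had one, where chance alone gives about 1 in 20. The named genes include 5 chosen because their call was lost without cortex replicate 5, so the count is a description. Of these, 12 were high and 17 were low readings of cortex replicate 5.

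The 12 high readings were of Apc2 (9.70), Sema6b (9.64), Myc (7.13), Pou3f1 (5.81), Inhbc (4.66), Cort (4.32), Meis1 (3.19), Sema3c (3.09), Ptprc (1.88), Cldn11 (1.84), Cacnb1 (1.73) and Pde8a (1.26). The 17 low readings were of Cd24a (57.3), Cat (13), Smarcd3 (9.22), Map4 (4.73), Dele1 (3.83), Pcbp3 (3.21), Coro1a (2.57), Aldoa (2.54), Gnb4 (2.22), Cacna1c (2.10), Hspb3 (2.09), Apod (1.70), Chga (1.48), Car2 (1.25), Olig1 (0.662), Fgfr3 (0.599) and Sncg (0.198).

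On the other cortex arrays the readings that stood apart were a high one of 1700001L05Rik on replicate 2 (0.357) and high ones on replicate 4 of Psmb8 (0.412), Cox8b (0.335) and Aldh1l1 (0.199). On the retina arrays, high readings were Rom1 (138) and Cat (7.29) on replicate 1, Gucy2e (4.89) and Tie1 (1.39) on replicate 2, Slc7a10 (0.320) on replicate 3, Slc1a4 (1.37) and Sfrp2 (0.108) on replicate 4 and Susd3 (30.9) on replicate 5. Low retina readings were Ptprc on replicate 1 (0.000383), Mki67 on replicate 2 (0.0886), Tulp1 on replicate 3 (57.1) and Drd4 on replicate 5 (2.93).

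The retina minus cortex difference of 16 named genes differed between the sites in limma's test of that change. It was larger at site 2 for Gnat1 (4.83), Mgarp (3.89), Ptpn14 (3.33), Sag (3.30), Rom1 (3.13), Rp1 (2.66), Tulp1 (1.55) and Susd3 (1.23), in log2 units. It was smaller for Izumo3 (-2.86), Tspan1 (-2.11), Cdc25c (-1.81), Gnaq (-1.80), Pard6b (-1.77), Sla (-1.61), Cdc25a (-1.16) and Fabp7 (-1.13). Of the latter, Sla, Fabp7 and Gnaq are differences towards cortex that were larger in size at site 2. Cdc25c went from 0.49 at the first site to -1.32 at site 2.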

How the results depend on the processing

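Leaving out each site 2 array in turn gave 1085 to 1182 probes higher in retina and 1354 to 1420 higher in cortex. The other alternatives gave 1027 to 1303 and 1119 to 1513. The lowest of these came from raising intensities to their 25th percentile (1027 and 1119), and the highest from quantile normalization (1303 higher in retina) and from rescaling cortex replicate 5 to the others (1513 higher in cortex), an alternative chosen after seeing the data. Probes whose tissue difference changed between the sites were the count that depended most on the setting: 75 as reported, 56 to 121 when 1 array was left out, with 121 without cortex replicate 5, 155 with array weights and 22 with the replicate number as a block. The cause was not tested. Same-numbered arrays of the tissues did not deviate together (correlations of 0.00341 to 0.0434). Correlations this low show no shared shift, and whether same-numbered arrays were processed together is not known. With the block, 1141 probes were called higher in retina and 1394 higher in cortex.

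Of 139 named genes called, 127 were called in each of the 21 alternatives that could test them. The other 12 were 1700001L05Rik, Aldh1l1, Apc2, Cdc25a, Chga, Idh2, Inhbc, Ptprc and Sema6b, each lost when some single array was left out, and Cdc25c, Igf2bp3 and Kcnj4, lost with the floor at the 25th percentile. Gucy2e was called after quantile normalization (1.25), and Pard6b without retina replicate 5 (1.06), after quantile normalization (1.23) and with array weights (1.21). The uncalled difference of Izumo3 was 0.00 with the floor at the 25th percentile. That of Tspan1 was -0.013 as reported and -0.31 to 0.21 when 1 array was left out: 0.06 without retina replicate 4, 0.21 without cortex replicate 2, 0.18 without cortex replicate 4 and -0.31 without cortex replicate 3. It was 0.15 after quantile normalization, 0.01 after median centring and 0.00 with the floor at the 25th percentile. Both genes had mean intensities under 0.1 in each tissue at site 2, and no background level was used here to set a limit of detection.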

Other observations

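Of the 75 probes whose tissue difference changed between the sites, 62 were called between the tissues in the first-site contrast and 42 in that of site 2, and 24 had the larger difference in size at site 2. With the tested probes in 4 equal groups by brightness, the dimmest held 29 of the 75 and the brightest 10. Of the 141 genes with several tested probes, 105 had the same call for all their probes at site 2 and 0 had probes called in opposite directions.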
